A study of Mus musculus with 19 samples.

Results

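Sorted glia of the mouse sciatic nerve were compared between embryonic day 18 (E18) and embryonic day 12 (E12), across all genes on the array. The 6 arrays were taken by their stage labels, 3 for E12 and 3 for E18, of 19 arrays in all. All embryos carried green fluorescent protein (GFP) driven by the promoter of the proteolipid protein gene Plp, a promoter active in crest stem cells and afterwards in glia. The sciatic nerve was dissected at each stage, and GFP-positive cells were collected by fluorescence-activated sorting. The E12 cells are labelled Schwann cell precursors and the E18 cells Schwann cells. The labels give no strain, treatment, sort purity or number of embryos per array, so each array stands for whatever cells had an active Plp promoter. No label ties the arrays to separate litters. The p-values below rest only on the spread between arrays within stages, estimated over all 19 arrays. The other 13 arrays hold trunk neural crest at E9.5 and nerve at E14, E16 and P0, the day of birth.

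Schwann cell precursors are the early glia of embryonic nerves. They lie among the axons, depend on axonal neuregulin for survival, and have no basal lamina of their own. During the later embryonic period they become immature Schwann cells, which lay down a basal lamina, survive on signals of their own making and sort axons before myelination begins around birth. Early commitment to myelin is set by SOX10, POU3F1 (Oct6) and EGR2 (Krox20), and by the withdrawal of inhibitors.

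Values are dChip expression indices, an array intensity on a linear scale. Indices under 68.5, the 25th percentile of the whole table, were set to that floor before log2 was taken. A fold is the ratio of the stages' geometric means of these values, and is written as "at least" where all 3 arrays of the lower stage were at the floor. Called means a Benjamini-Hochberg adjusted p under 0.05 from limma over all probe sets tested, and each gene is represented by 1 probe set, that with the highest mean. Fewer cells of a type and less RNA per cell cannot be told apart in sorted pools of this kind. The median index was 195.5 to 197.4 on the E12 arrays and 179 to 188.7 on the E18 arrays. Rank correlations across probe sets ran from 0.949 to 0.977 within E12, from 0.937 to 0.978 within E18 and from 0.868 to 0.895 between them. The GAPDH controls had a 3'/5' ratio of 3.18 to 4.53 at E12 and 4.11 to 4.83 at E18. Lots 1 and 2 each held 1 array of both stages, E12 replicate 4 was of lot 4 and E18 replicate 3 of lot 3. As a check of identity, the glial genes Sox10 (1888, 2207 and 2695 at E12; 2125, 2230 and 1363 at E18) and Erbb3, the neuregulin co-receptor (3066, 3768 and 4056; 4283, 3727 and 3683), were high on all 6 arrays and were not called.

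Promoter windows are shown for the cholesterol enzymes that rose together, Hmgcs1, Idi1 and Msmo1, and for Cks1b, the mitotic gene whose fall was called on all arrays and without each of the 6 in turn. Each runs 250 bases before to 50 bases after the RefSeq start of the gene in GRCm38.p6, 5′ to 3′ on the strand of the gene. The positions are chr13:119690101-119690400 (plus strand) for Hmgcs1, chr13:8885356-8885655 (plus) for Idi1, chr8:64733529-64733828 (minus) for Msmo1 and chr3:89418242-89418541 (minus) for Cks1b. Capitals mark matches, on either strand, to CCAAT (the box bound by NF-Y, reading ATTGG on the other strand), in Hmgcs1 to TCACCCCAC (a sterol regulatory element core), and in Cks1b to TTTGAA (the cell cycle homology region, reading TTCAAA on the other strand).
Hmgcs1: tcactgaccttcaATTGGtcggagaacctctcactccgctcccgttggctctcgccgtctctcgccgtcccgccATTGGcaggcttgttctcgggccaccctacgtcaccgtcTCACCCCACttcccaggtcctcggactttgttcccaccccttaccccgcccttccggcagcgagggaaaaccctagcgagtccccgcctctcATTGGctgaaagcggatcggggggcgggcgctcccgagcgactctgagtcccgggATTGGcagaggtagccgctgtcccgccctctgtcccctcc
Idi1: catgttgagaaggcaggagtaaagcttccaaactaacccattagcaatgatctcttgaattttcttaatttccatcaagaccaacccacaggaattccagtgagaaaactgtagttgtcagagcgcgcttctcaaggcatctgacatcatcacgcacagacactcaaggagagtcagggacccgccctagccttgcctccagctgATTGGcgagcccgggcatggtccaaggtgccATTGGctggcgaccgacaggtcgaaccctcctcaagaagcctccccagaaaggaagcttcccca
Msmo1: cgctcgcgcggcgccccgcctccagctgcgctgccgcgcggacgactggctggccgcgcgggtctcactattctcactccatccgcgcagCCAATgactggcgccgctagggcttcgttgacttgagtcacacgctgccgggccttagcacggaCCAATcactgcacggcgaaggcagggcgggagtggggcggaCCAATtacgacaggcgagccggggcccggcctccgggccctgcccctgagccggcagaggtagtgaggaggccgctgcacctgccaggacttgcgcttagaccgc
Cks1b: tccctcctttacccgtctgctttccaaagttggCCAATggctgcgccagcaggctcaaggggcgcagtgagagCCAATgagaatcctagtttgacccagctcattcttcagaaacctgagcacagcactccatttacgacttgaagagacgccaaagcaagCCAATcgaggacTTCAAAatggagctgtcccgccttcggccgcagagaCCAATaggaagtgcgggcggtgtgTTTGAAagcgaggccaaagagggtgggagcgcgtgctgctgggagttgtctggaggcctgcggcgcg
CCAAT was found in the windows of 13 of 13 cholesterol genes that have one, against 42.9% of the 5929 tested genes with a window and 37.4% of all 32851 windows. TCACCCCAC was found in Hmgcs1 alone of these 13, and in 0.776% of tested genes. TTTGAA was found in 20 of 31 mitosis genes, which is 64.5%, against 14.8% of tested genes and 17.9% of all windows. A match describes only the letters of the window.

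Of 10414 probe sets tested, 352 were called higher at E18 (3.38%) and 791 lower (7.6%). Counted as genes, 265 of 7414 were higher (3.57%) and 609 lower (8.21%), and the median log2 change of all genes was -0.08. Of the called genes, 186 had several tested probe sets. All other probe sets were called the same way in 57 of the 186, and a probe set was called the opposite way in 2. The balance moved with scaling, since 30.8% of called probe sets were higher with the deposited values, 43.9% after quantile normalization (500 higher, 639 lower) and 43% after setting the arrays to equal medians (496 and 657). Of the higher genes, 186 changed by at least 2-fold and 33 by at least 8-fold, and of the lower genes 344 and 22. The E12 and E18 arrays did not overlap in 262 of the 265 and 605 of the 609, against 2830 of all 7414 genes. Each of the 6 arrays was also left out in turn, and 139 higher and 298 lower genes were called on all arrays and in every one of those fits. The numbers of probe sets were lowest without E12 replicate 2 (217 higher, 467 lower) and E18 replicate 2 (231 and 475). All 265 rose and all 609 fell within both lot 1 and lot 2, arrays that the calls themselves used.

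**Figure D1:**
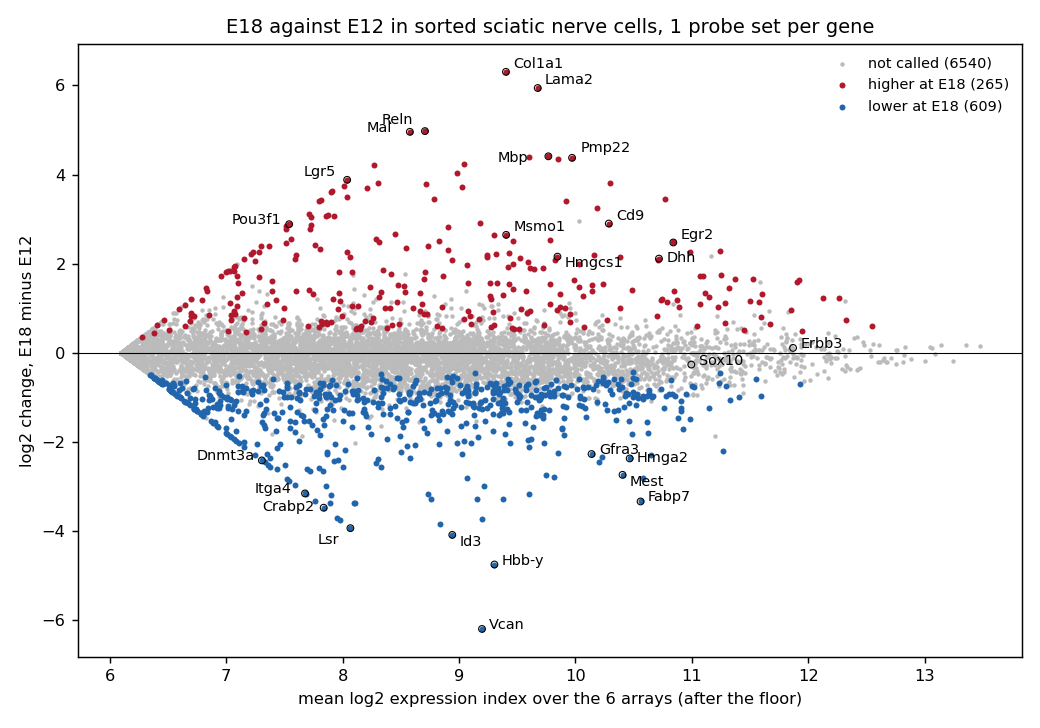
Log2 change from E12 to E18 (vertical axis) against the mean log2 index over the 6 arrays (horizontal axis), 1 point per gene. Red points are the 265 genes called higher at E18 and blue points the 609 called lower. The slanted left edge holds genes at the floor in the lower stage, and Sox10 and Erbb3 lie near 0.

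The largest rises included genes of the extracellular matrix and of myelin. Col1a1, the alpha-1 chain of type I collagen, had indices of 75.3, 85.6 and 40.9 at E12 and of 6398, 6505 and 5248 at E18, 79.1-fold more (log2 change 6.30, SE 0.21, adjusted p = 5.42e-12). Lama2, a chain of basal lamina laminin, went from 101, 90.3 and 125 to 7215, 5830 and 6278, which is 61.5-fold. In both genes every E18 array lay far above every E12 array. Gatm, the first enzyme of creatine synthesis, rose 31.6-fold (88.5, 34.8 and 35.6 to 2848, 2744 and 1673), and Reln, the secreted glycoprotein reelin, 31.4-fold (38.7, 19.8 and 88.2 to 2766, 2180 and 2136). A second Reln probe set was not called. Sparcl1, a matricellular protein of the SPARC family, rose 21.1-fold and Itih5, an inter-alpha-trypsin inhibitor heavy chain, 20.3-fold. The other rises of at least 12-fold outside the lists described below were Ank3 (ankyrin G, an anchor of membrane channels), Lgr5 (an R-spondin receptor), Col14a1, Emp1 (a relative of Pmp22), Prkcq and Lpar1 (a receptor for lysophosphatidic acid). Lgr5 had all 3 E12 arrays at the floor and 929, 944 and 1173 at E18, at least 14.7-fold more. Emp1 was measured on all E12 arrays (562, 431 and 159) and reached 4665, 4518 and 4946.

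Among falls the largest was Vcan, the chondroitin sulfate proteoglycan versican. Its index was 4907, 4441 and 5852 at E12 and 11.8, 32.8 and 0 at E18, at least 73.5-fold less (log2 change -6.20, SE 0.36, adjusted p = 5.58e-09). Id3, an inhibitor of helix-loop-helix factors, dropped from 1947, 2273 and 1885 to 102, 134 and 124, which is 17-fold. Both stages were far apart and tight in these genes. Lsr, a lipoprotein receptor of tricellular junctions, dropped at least 15.3-fold, and the homeobox genes Dlx2 and Dlx1 14.4-fold and 9.8-fold. Dlx2 had 1404, 1545 and 2434 at E12 and 141, 181 and 44.8 at E18. The Dlx1 call was lost without E18 replicate 3 (adjusted p = 0.0648), the array with an index of 10.2 against 393 and 224 on its partners. Several of the others are best known from neurons. They include Cadps, a priming factor of dense-core vesicles (862, 898 and 1018 to values all at the floor, at least 13.5-fold), and Ddc, the decarboxylase of dopamine and serotonin synthesis (10.4-fold). Dpysl4, of the collapsin response mediator family, fell 10.3-fold and Gap43, the growth cone protein, 10.4-fold. Scrg1 had 967, 904 and 816 at E12 and 0 on all 3 E18 arrays. Crabp2, which carries retinoic acid to its receptor, had 653, 705 and 967 and then 19.2, 12.8 and 3.5, at least 11.1-fold less. Actn1, Sh3rf1, Nkain1, Enah and the E-protein gene Tcf4 fell by 9.07-fold or more, though a second Enah probe set was not called lower. Sox11, a SOXC factor of progenitors, was 2170, 2693 and 2174 against 405, 286 and 148. Its call (adjusted p = 0.0443) was lost in the fit without any one of the 6 arrays, with an adjusted p of up to 0.144. It was also lost after quantile normalization and equal medians, and kept with the 6 arrays fitted alone. All stages share 1 estimate of the spread, and Sox11 ran from 352 to 3020 at E16 and from 86 to 2829 at P0.

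Of the 42 gene lists, myelin had the highest share of rises. Of 25 myelin genes listed, 14 were on the array and 12 were tested, and 7 were higher and 0 lower (1 at an unadjusted limma p under 0.05), with a median log2 change of 2.01. All 7 calls held without each array in turn. Pmp22, a compact myelin protein whose dosage underlies common neuropathies, went from 244, 140 and 313 at E12 to 5198, 5044 and 3649 at E18, a 20.7-fold rise (log2 change 4.38, SE 0.26, adjusted p = 5.83e-09). Mbp, the myelin basic protein, went from 191, 218 and 163 to 4382, 3672 and 4033, which is 21.2-fold, but a second Mbp probe set did not change. Mal, a proteolipid of myelin membrane sorting, was at the floor on all E12 arrays and at 2300, 1917 and 2195 at E18, at least 31.1-fold more. Ndrg1, mutated in a demyelinating neuropathy, rose 13.9-fold. Cd9, a tetraspanin of the Schwann cell surface, rose 7.47-fold (562, 569 and 299 to 3225, 3263 and 3781), Cldn11, a tight junction protein, 5.83-fold and Cd59a, an inhibitor of complement, 2.77-fold. The remaining 5 were not called. Mag, the myelin-associated glycoprotein of the innermost myelin wrap, had 231, 218 and 219 at E12 and 356, 310 and 372 at E18, without overlap and with an adjusted p of 0.148. Cnp was near the floor on all 6 arrays, Gjb1, the connexin 32 gene, reached 103 at most, and Mog and Ugt8a were at the floor throughout.

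Regulators of myelination moved both ways. Of 25 tested, 3 were higher and 5 lower. Egr2, the master factor of peripheral myelin, rose from 1234, 550 and 695 to 4213, 5061 and 3797, 5.56-fold (adjusted p = 0.000283). Pou3f1, the factor that comes before Egr2, was at the floor on all 3 E12 arrays and at 590, 651 and 338 at E18, at least 7.39-fold more. Hey1, a Notch target, rose 2.54-fold. The 5 called lower were Id3, Id1, Nab1, Tfap2a and Pax3. Beside Id3, Id1 dropped at least 3.68-fold (408, 255 and 154 to values all under the floor), while their relatives Id2 (3328, 3392 and 2929 to 5070, 4290 and 3095) and Id4 were not called. Nab1, a corepressor of EGR proteins, fell 2.74-fold, and its relative Nab2 was not called (402, 466 and 372 to 570, 512 and 413). Tfap2a, the crest factor AP-2 alpha, fell 2-fold, and a second probe set fell further. Pax3 was called lower (188, 210 and 192 to 75.5, 65 and 156), but not without E12 replicates 1 or 2 or E18 replicates 1 or 2 (adjusted p of up to 0.114). Tfap2b was at the floor on all 6 arrays. The repressors of myelination Sox2 (3154, 3398 and 2798; 3586, 4425 and 4543) and Jun (3500, 2005 and 2216; 4414, 4411 and 3274) were not called, and neither was Foxd3, a crest factor (372, 232 and 368; 422, 430 and 126).

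**Figure D2:**
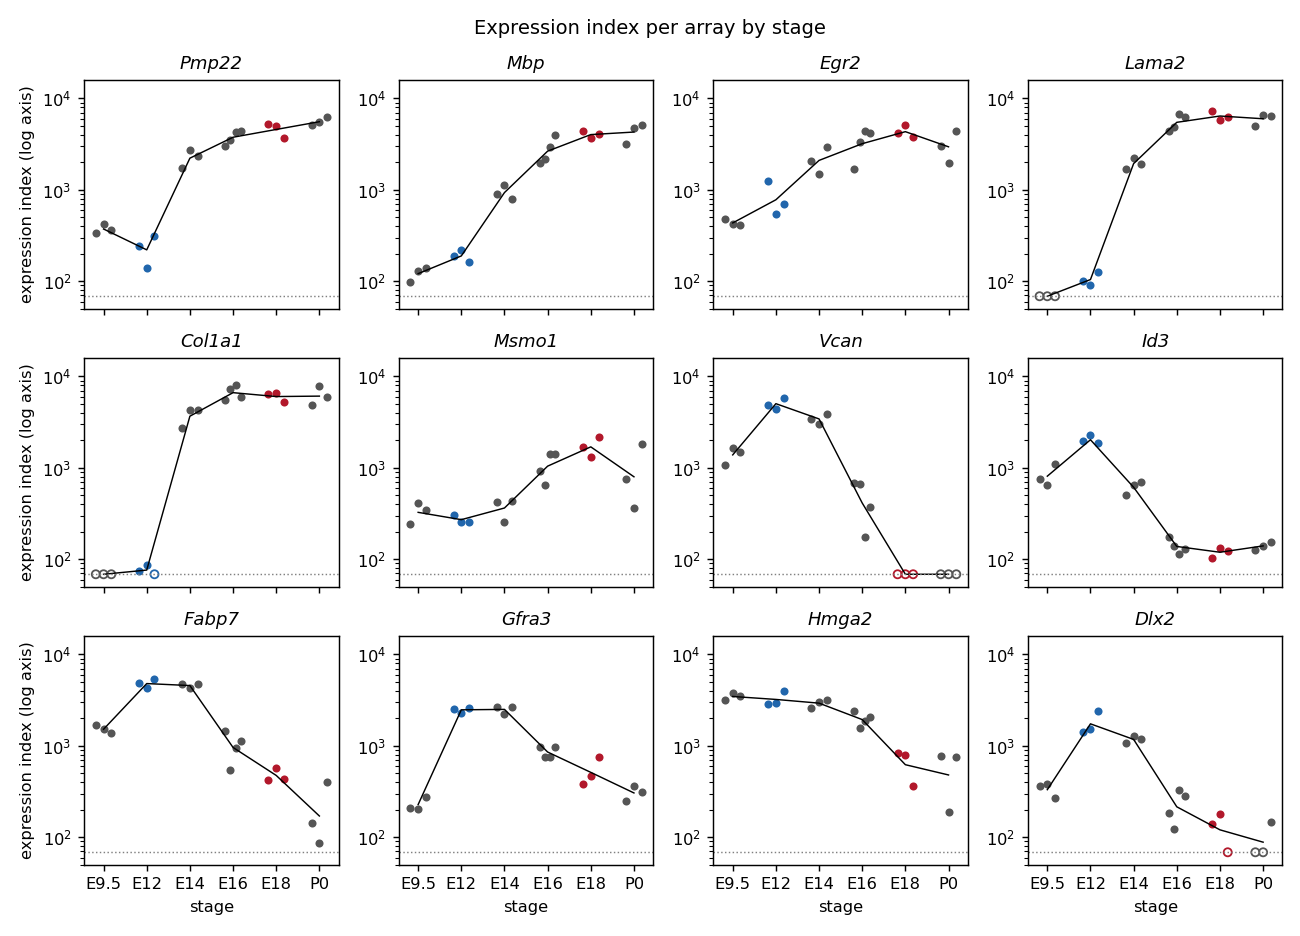
Expression index (vertical, log axis) of 12 genes on each of the 19 arrays, by stage. Points are arrays (blue E12, red E18, grey other stages, open where at the floor, which is the dotted line), and the black line joins the stage means of the log2 values. Pmp22, Lama2 and Col1a1 were already far above E12 at E14, Msmo1 rose after E14, and Vcan reached the floor at E18.

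Genes that mark precursors or immature Schwann cells moved in both directions. Of 18 tested genes of precursor and crest glia, 5 were lower and 3 higher, and of 20 tested genes of immature Schwann cells, 6 were higher and 2 lower. Gfra3, the artemin receptor, fell 4.83-fold (2541, 2315 and 2589 to 381, 471 and 750), and Itga4, the alpha-4 integrin, at least 8.92-fold (582, 578 and 679 to values under the floor on all 3 arrays). Fabp7, the brain lipid-binding protein, went from 4819, 4270 and 5376 to 422, 577 and 439, which is 10.1-fold less. Dhh, the hedgehog ligand that Schwann cells send to the perineurium, rose 4.33-fold (832, 748 and 854 to 3506, 3342 and 3670), though a second probe set did not. Sema3b, a secreted semaphorin, rose 7.26-fold. Ptprz1, a receptor phosphatase, is uncertain, since 1 of its probe sets was called lower and another higher, and the call of the one used was lost without E12 replicate 2 (adjusted p = 0.146) or any E18 replicate. Cdh2, the N-cadherin of precursor contacts, had 1068, 1262 and 1522 at E12 and 748, 563 and 408 at E18, with no overlap and an adjusted p of 0.0635. Ednrb, the endothelin B receptor, and Cadm1 were high and not called (4384, 4688 and 6084 against 4938, 4359 and 4608 for Ednrb). In the immature list, Cryab, a small heat shock protein, rose 3.69-fold, while S100b, the usual marker of Schwann cells, had 23.7, 5.8 and 41.2 and then 78.9, 70.6 and 23.8, close to the floor. Gfap stayed between 77 and 103 on all 6 arrays. Apoe was called higher (3.29-fold), but not without E12 replicates 2 or 4 or E18 replicate 3 (adjusted p of up to 0.0909). Entpd2, an ectonucleotidase, lost its call without any one of the 6 arrays (up to 0.136), but a second probe set of it was called higher.

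Of the laminin and collagen IV chains of the basal lamina, Lama2, Lamb1, Lamc1, Col4a1 and Col4a2 rose. Lama1, Lama4, Lama5, Lamb2, Lamb3, Col4a4 and Col4a5 were not called, with log2 changes between -0.21 and 1.01. Of 22 tested basal lamina components, 8 were higher and 2 lower, with a median log2 change of 0.90, and 6 of the rises held without each array. Lamb1 and Lamc1, the partners of Lama2 in laminin-211, rose 3-fold (2446, 2177 and 2051 to 7321, 6231 and 6474) and 2.48-fold (1908, 1757 and 2287 to 4160, 5626 and 4985). Their E12 indices were already high, while Lama2 was near the floor. Col4a1 rose 2.36-fold (3058, 2874 and 2793 to 7534, 6746 and 6363), Col4a2 2.03-fold and Col15a1 13.2-fold. Nid2 and Sparc were called higher on all arrays but not without E12 replicate 2 (adjusted p = 0.0723 and 0.11). Nid2 also lost its call without E18 replicate 3, and Sparc without E12 replicate 1 or E18 replicates 1 or 2. Col18a1, whose fragment is endostatin, fell 2-fold (3771, 3504 and 4274 to 2242, 1823 and 1728), although its other probe sets disagreed. Agrn, the proteoglycan agrin, was called lower (2.48-fold), but not without E12 replicates 2 or 4 or E18 replicates 2 or 3 (adjusted p of up to 0.0902).

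Of 16 tested laminin receptors and their partners, 3 were higher and 1 lower, and 5 or 6 were higher after the other scalings. Itgb4, the partner of alpha-6 integrin in mature Schwann cells, rose 12.9-fold (91.8, 88 and 38.6 to 995, 919 and 1307), and Itga6 2.9-fold (612, 702 and 828 to 2225, 2100 and 1855). Dag1, dystroglycan, rose 2.17-fold, a call that was lost without E12 replicate 1 (adjusted p = 0.0662) or E18 replicate 1 (0.0581). Cd151, a tetraspanin that binds laminin integrins, fell 2.78-fold (3246, 2983 and 3219 to 1093, 1166 and 1138). The other 2 probe sets of Cd151 were not called.

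Of 19 tested fibrillar collagens and collagen-processing enzymes, 8 were higher and 0 lower (1 at an unadjusted limma p under 0.05). All 8 calls held without each array in turn. Col1a2 (2830, 3464 and 3396 to 8277, 7725 and 6698), Col3a1 (2020, 2096 and 2504 to 7317, 7253 and 6066) and the type V chains Col5a1 and Col5a2 were already high at E12 and rose between 2.22-fold and 3.12-fold. Col1a1 was the exception, near the floor at E12. Lox, the collagen cross-linking oxidase, was at the floor on all E12 arrays and at 562, 446 and 468 at E18, at least 7.14-fold more, P4ha1, a prolyl hydroxylase of collagen, rose 3.91-fold, and Col11a1 5.36-fold. Collagens of this kind are also made by fibroblasts. Of 22 tested fibroblast and perineurial markers, 4 were higher and 0 lower (2 at an unadjusted limma p under 0.05), namely Col1a1, Col1a2, Col3a1 and Gsn, with a median log2 change of 0.22. At that unadjusted limit 6 were higher. Fitted changes were above 0 for 15 of the 22 markers, against 3000 of all 7414 genes. Their summed index was 15310 to 18050 at E12 and 29510 to 34550 at E18. Pdgfrb, Prrx1, Cldn1 and Msln were at the floor on all 6 arrays. Others of these markers were not called. Pdgfra was low at both stages, with a mean of 122 ± 17.3 at E12 and 136 ± 4.59 at E18 (SD, n = 3 each). Dcn, decorin, had 90.0 ± 30.4 and then 312 ± 241 (SD, n = 3 each), a fitted log2 change of 1.5. Whether fibroblasts have a part in the collagen rises was not tested.

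Other secreted matrix proteins changed in both directions. Of 22 tested, 6 were higher and 5 lower. Tnc, tenascin C, rose 5.65-fold (310, 373 and 229 to 1514, 1750 and 1796) and Matn2, matrilin 2, 4.85-fold (1492, 562 and 1580 to 5822, 5151 and 5022). The related heparin-binding growth factors midkine and pleiotrophin went in opposite directions. Mdk, midkine, fell 6.89-fold (2123, 2411 and 2569 to 278, 320 and 451), and Ptn, pleiotrophin, rose at least 5.25-fold from the floor (475, 467 and 210 at E18). The binding proteins of insulin-like growth factors also split, with Igfbp2 down at least 3.11-fold, Igfbp4 down 3.15-fold and Igfbp3 up 2.96-fold. Fn1, fibronectin, was called lower (3.5-fold), but not without E18 replicate 3 (adjusted p = 0.0584). Among 28 tested adhesion molecules, 3 were higher (Cd9, Cntn1 and Ncam2) and 3 lower (Itga4, Cdh6 and Cd24a). That is 10.7% each way, against 3.57% of all genes higher and 8.21% lower. Cdh6, a cadherin of the early crest, fell 5.93-fold (495, 557 and 884 to 135, 111 and 78.2), and Cntn1, contactin 1, rose 2.96-fold.

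**Figure D3:**
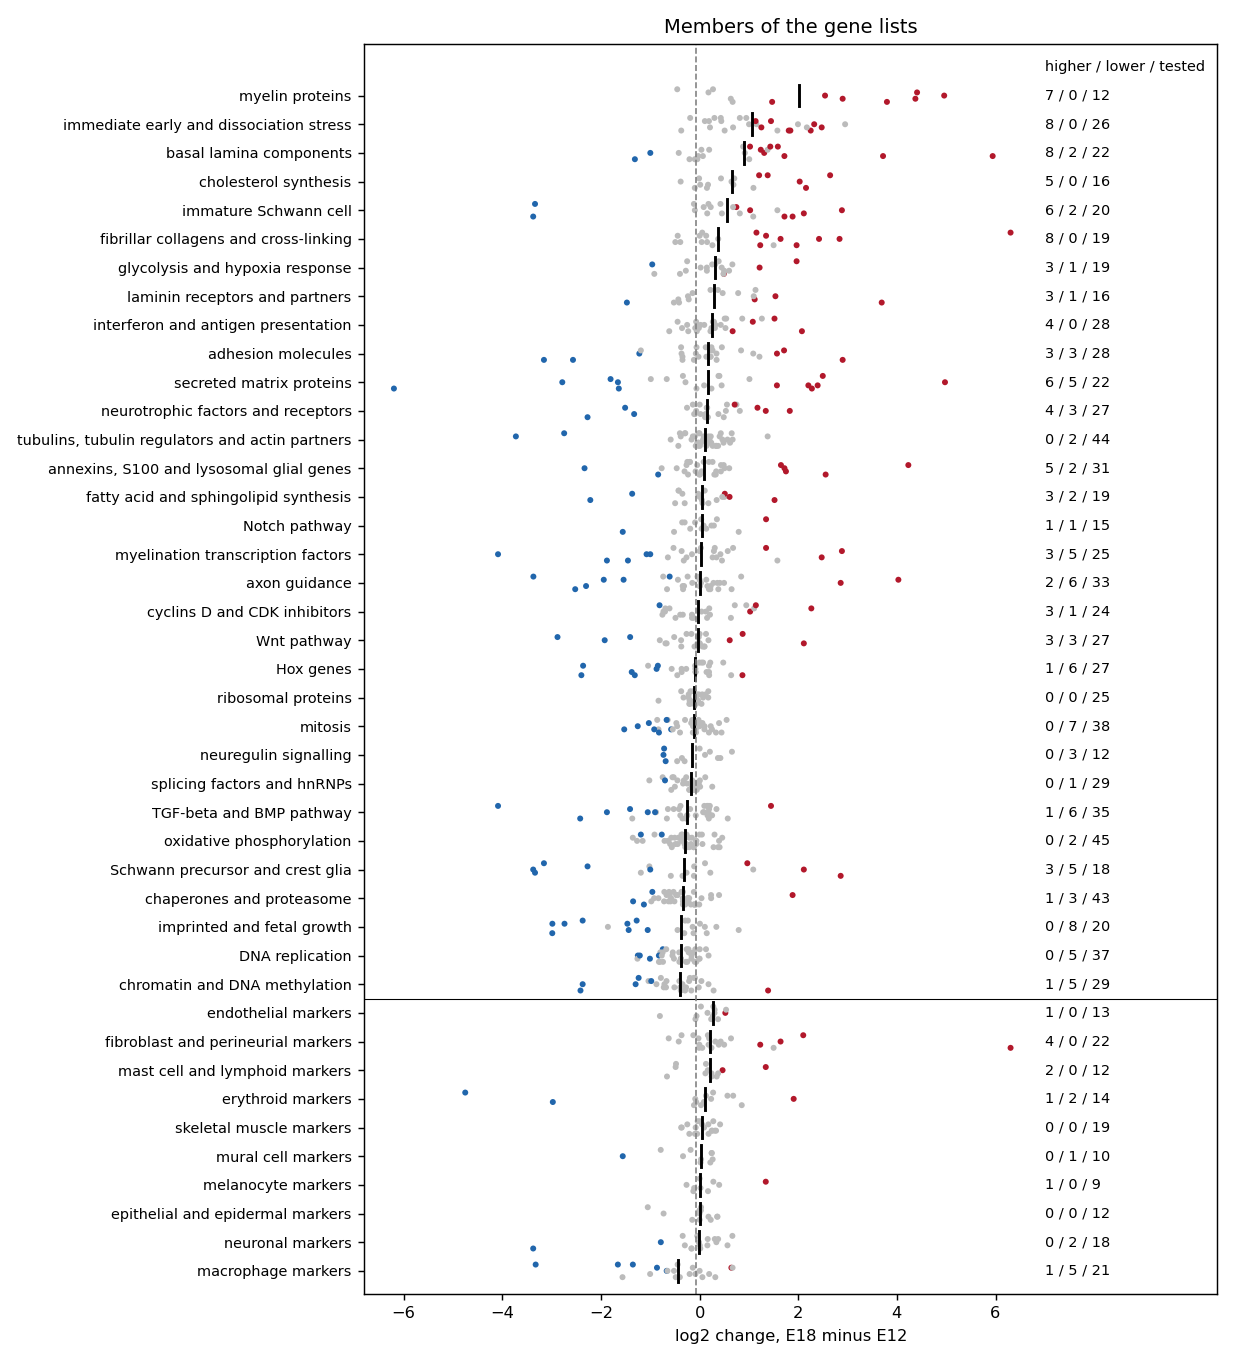
Log2 change from E12 to E18 of every tested member of the 42 gene lists (grey not called, red higher, blue lower), with a black bar at the list median and a dashed line at the median of all genes, -0.08. Lists under the rule are markers of other cell types, and the figures at the right give the numbers higher, lower and tested. Myelin has the highest median, 2.01, and macrophage markers the lowest, -0.45.

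Cholesterol synthesis, which supplies growing myelin membrane, rose at some of its steps. Of 16 tested enzymes, 5 were higher and 0 lower (none at an unadjusted limma p under 0.05), with a median log2 change of 0.67. Msmo1, a sterol demethylase, rose 6.26-fold (306, 252 and 258 to 1693, 1328 and 2170; adjusted p = 0.000711), and Idi1, an isomerase of isoprenoid units, 4.08-fold (329, 449 and 375 to 1521, 1517 and 1636). Both held without each array, and without E12 replicate 1 they were the only 2 of the 5 still called. Hmgcs1, the first step committed to mevalonate, rose 4.46-fold (389, 460 and 462 to 2052, 1828 and 1958), and its adjusted p was 0.0136, or 0.0506 without E12 replicate 1. Sqle, squalene epoxidase, rose 2.6-fold, with 0.0517 without E12 replicate 1 and 0.0618 without E18 replicate 1. Fdps, farnesyl diphosphate synthase, rose 2.31-fold and lost its call without E12 replicates 1 or 4 or E18 replicates 1 or 3 (up to 0.117). Other steps were not called, and Mvk, Mvd, Fdft1, Hsd17b7 and Tm7sf2 had fitted log2 changes between -0.10 and 0.17. Cyp51 had 296, 419 and 271 and then 574, 645 and 878, without overlap and with an adjusted p of 0.134. None of the 5 called enzymes had a mean past the midpoint between E12 and E18 at E14. Msmo1 had means of 374 ± 100.2 at E14 (SD, n = 3) and 1098 ± 382 at E16 (SD, n = 4). In fatty acid and sphingolipid synthesis, 3 of 19 were higher and 2 lower, of which 1 each way held without each array (1 higher without E12 replicate 1). Scd1, the stearoyl desaturase, rose 2.87-fold (614, 743 and 652 to 1977, 1800 and 1967), while Acsl4, an acyl-CoA synthetase for arachidonate, fell 4.65-fold (811, 745 and 795 to 192, 180 and 138). The promoter windows of Hmgcs1, Idi1 and Msmo1 shown above hold 4, 2 and 3 matches to CCAAT.

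**Figure D4:**
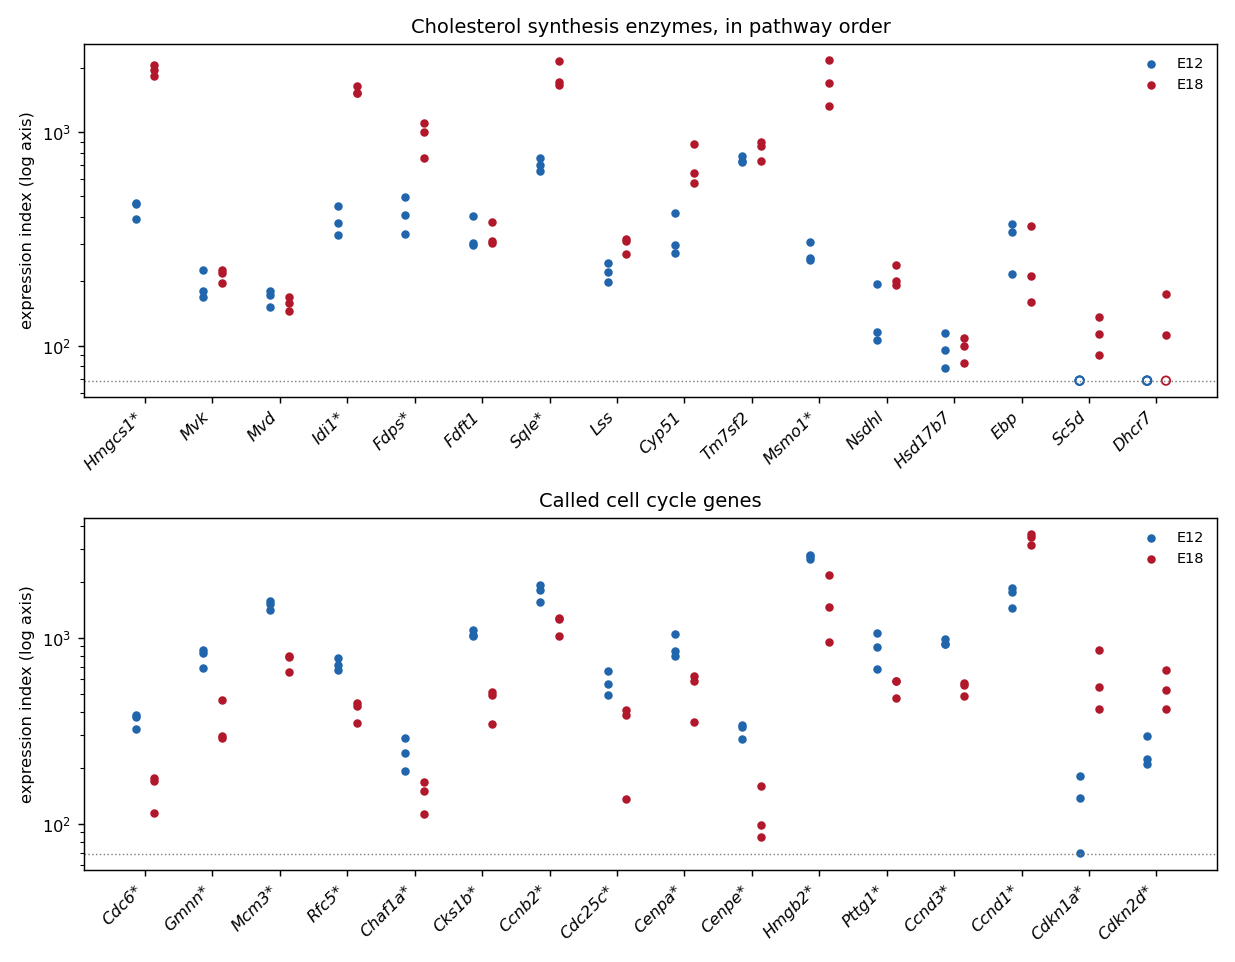
Expression index (vertical, log axis) on each E12 array (blue) and E18 array (red). Above are 16 cholesterol enzymes from the first to the last step, with an asterisk on the 5 called, and below are 16 called genes of replication, mitosis and the cyclin and inhibitor list. Open points are at the floor, which is the dotted line.

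In DNA replication and mitosis all calls were falls, and most members were not called. Of 37 tested genes of DNA replication, 5 were lower (13.5%) and 0 higher (median log2 change -0.38), and of 38 of mitosis, 7 were lower (18.4%) and 0 higher (median -0.12), against 8.21% of all genes lower. By limma 0 of either list were higher at an unadjusted p under 0.05 as well. Calls that held without each array numbered 2 for replication and 1 for mitosis. They were Gmnn, geminin, which blocks relicensing (862, 830 and 690 to 296, 290 and 461, 2.32-fold), Rfc5, a clamp loader subunit (1.77-fold), and Cks1b (1019, 1102 and 1037 to 508, 493 and 342, 2.39-fold). The other 9 (Mcm3, Cdc6, Chaf1a, Ccnb2, Cdc25c, Cenpa, Cenpe, Hmgb2 and Pttg1) were 1.49-fold to 2.89-fold lower over all arrays. Without E18 replicate 3 all of these but Pttg1 lost their calls, and without E12 replicate 2 all but Cenpa, with adjusted p of up to 0.214 and 0.163. Between 2 and 4 replication genes and between 2 and 5 mitosis genes were called lower over the 6 leave-outs, with 2 of each without E12 replicate 2 or E18 replicate 3. Up to 2 mitosis genes were called higher in a leave-out, and array weights called 6 mitosis genes higher and 10 lower. After quantile normalization 2 mitosis genes were called and after equal medians 3, and the mitosis median was 0.18 within lot 1 and 0.03 within lot 2. Mki67, the proliferation antigen, had a mean of 1425 ± 105 at E12 and 2185 ± 769.5 at E18 (SD, n = 3 each), and Top2a, Cdk1, Cdc20 and Aurkb had fitted log2 changes between -0.07 and 0. Cyclins and inhibitors gave 3 rises (12.5%, against 3.57% of all genes) and 1 fall (4.17%, against 8.21%) among 24. Ccnd1, cyclin D1, rose 2.03-fold (1451, 1757 and 1843 to 3625, 3479 and 3134) and the CDK inhibitor Cdkn2d (p19) 2.2-fold (222, 295 and 209 to 525, 668 and 416). A second Ccnd1 probe set was not called. Cdkn1a, p21, was 138, 182 and 69.2 and then 544, 412 and 861, but its call was lost without E12 replicate 4 (adjusted p = 0.0922) or E18 replicates 1 or 3. The fall, of Ccnd3, was lost without any one of the 6 arrays (up to 0.151).

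Of 29 tested chromatin genes, 5 were lower (17.2%, against 8.21% of all genes) and 1 higher (3.45%, against 3.57%). All 5 falls held without each array. Hmga2, an architectural factor of fetal cells, fell 5.18-fold (2884, 2918 and 3965 to 837, 790 and 364), and Dnmt3a, a de novo DNA methyltransferase, at least 5.34-fold (326, 412 and 364 to 31.4, 12.7 and 8.01). Cbx5 (heterochromatin protein 1 alpha), Smarcc1 (a SWI/SNF subunit) and Hmgb3 fell 1.98-fold to 2.46-fold. Lmna, lamin A, was called higher (2.62-fold), but not without any one of the 6 arrays (adjusted p of up to 0.141). Of 20 tested imprinted and fetal growth genes, 8 were lower and 0 higher (0 also at an unadjusted limma p under 0.05), and 6 held without each array. Igf2bp1, which binds fetal growth messages, fell 7.92-fold (1638, 1744 and 1645 to 188, 285 and 176), Mest 6.68-fold (3574, 3137 and 3840 to 627, 639 and 360) and Nnat, neuronatin, 7.93-fold (426, 406 and 1610 to 86.9, 93.5 and 35.6). Grb10, an adaptor that restrains insulin receptors, and Igf1r fell 2.76-fold and 2.71-fold.

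Hox genes and signalling pathways changed at single members. Of 27 tested Hox genes, 6 were lower (22.2%, against 8.21% of all genes) and 1 higher (3.7%, against 3.57%). The falls of Hoxa5 (5.27-fold, 590, 582 and 545 to 105, 128 and 94.7), Hoxb6 (5.14-fold) and Hoxc9 (2.49-fold) held without each array. Without E12 replicates 2 or 4 or E18 replicates 1 or 2 these were the 3 of the 6 still called, and the rise, of Hoxd8, was lost without any one of the 6 arrays (adjusted p of up to 0.101). In the TGF-beta and BMP pathway, 6 of 35 were lower (17.1%, against 8.21% of all genes) and 1 higher (2.86%, against 3.57%). Beside Id3 and Id1, the inhibitory Smads Smad6 (2.07-fold) and Smad7 (2.66-fold) fell, as did Mstn, myostatin (370, 1200 and 403 to 112, 86.4 and 120, 5.36-fold). Fst, follistatin, which binds activins and myostatin, rose at least 2.73-fold. Of 15 tested Notch genes, Hey1 rose and Notch3 fell 2.95-fold. Each is 6.67% of the list, against 3.57% of all genes higher and 8.21% lower. Among 27 Wnt genes, 3 were lower and 3 higher (1 higher without E12 replicate 1), which is 11.1% each way, against 8.21% of all genes lower and 3.57% higher. The calls held without each array for the antagonists Dkk2 (at least 7.37-fold lower) and Sfrp1 (3.8-fold lower), the receptor Fzd3 (2.66-fold lower) and the ligand Wnt6 (at least 4.33-fold higher). Dkk2 had 530, 402 and 606 at E12 and was under the floor on every E18 array. The 12 tested genes of neuregulin signalling gave 3 falls of 1.61-fold to 1.66-fold (Errfi1, Pik3ca and Shc1), which were all lost after both other scalings and without E12 replicate 1 (adjusted p of up to 0.162 over the 6 leave-outs).

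Of 33 tested axon guidance genes, 6 were lower (18.2%, against 8.21% of all genes) and 2 higher (6.06%, against 3.57%). Nrp1, neuropilin 1, the semaphorin and VEGF receptor, fell 4.93-fold (3111, 3477 and 4228 to 832, 742 and 617), and Crmp1 and Dpysl3, intracellular partners of semaphorin signals, at least 5.75-fold and 2.91-fold. Efnb2, ephrin B2, fell 3.85-fold (880, 543 and 586 to 229, 222 and 96.8), in contrast to the receptor Epha5, which rose 16.3-fold (133, 105 and 140 to 1932, 1947 and 2267). Neurotrophic factors and receptors gave 4 rises and 3 falls among 27 (2 rises without E12 replicate 1). These are 14.8% and 11.1%, against 3.57% and 8.21% of all genes. Pdgfa, a chain of platelet-derived growth factor, rose 2.25-fold (1196, 1483 and 1106 to 2924, 2726 and 2824), Kitl, stem cell factor, fell 2.85-fold (2375, 2227 and 2003 to 963, 829 and 573), and Bdnf fell 2.51-fold, a call lost without E12 replicate 2 (adjusted p = 0.0592). The list of tubulins and actin partners gave 2 falls among 44, a share of 4.55% against 8.21% of all genes. They were Actn1 and Myl9, a regulatory light chain of myosin (2250, 2844 and 1733 to 274, 310 and 431, 6.71-fold).

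Genes of general cell upkeep had few calls among ribosomal, respiratory and splicing genes. Of 25 tested ribosomal protein genes limma called 0, with 1 lower at an unadjusted p under 0.05. Of 45 genes of oxidative phosphorylation 2 were lower, and of 29 splicing factors 1, shares under the 8.21% of all genes. None of these 3 calls held without each array: Atp5g1 was lost without any one of them, Ndufa5 without E12 replicates 1 or 2 or E18 replicates 1 or 2 (adjusted p of up to 0.152) and Snrpe without E18 replicate 1 (0.0581). Their medians (-0.12, -0.29 and -0.17) lay under the all-gene median of -0.08, and that of oxidative phosphorylation was -0.16 after quantile normalization. Of 43 chaperones and proteasome subunits, 3 were lower (1 without E12 replicate 2) and 1 higher. These shares of 6.98% and 2.33% were under the 8.21% and 3.57% of all genes. Glycolysis and hypoxia genes gave 3 rises and 1 fall among 19, with P4ha1 and Tpi1, triosephosphate isomerase (1062, 1360 and 991 to 2181, 2401 and 3424, 2.32-fold), holding without each array. The fall, of Ldhb, was lost without each array but E12 replicate 1 (adjusted p of up to 0.123).

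Immediate early genes, which dissection and dissociation can induce, were also among those higher at E18. Of 26 tested on this list, 8 were higher and 0 lower (0 also at an unadjusted limma p under 0.05), with a median log2 change of 1.07, which was 0.48 within lot 1 and 1.79 within lot 2. Egr2 belongs to this list as well as to the myelination factors. Atf3, an early stress factor, rose 4.76-fold (1902, 1401 and 302 to 4122, 4240 and 4978), and Egr1 had 2792, 721 and 2798 and then 7030, 6513 and 3263 with an adjusted p of 0.0879. The number called fell to 3 without E12 replicate 2, E18 replicate 1 or E18 replicate 2. Of these, E12 replicate 2 was the lowest E12 array for Egr1, Fosb, Klf6 and Nr4a1. Atf3 and Egr2 alone held without each array. The summed index of the list was 30600 to 54030 at E12 and 57040 to 78470 at E18. Whether the handling of the nerves has a part in the Egr2 rise was not tested. Interferon and antigen presentation genes gave 4 rises among 28 (2 without E12 replicate 2 or E18 replicates 2 or 3), of which Gbp3 (2.11-fold) and H2-Aa (189, 180 and 271 to 556, 594 and 656, 2.86-fold) held without each array. Of 31 annexin, S100 and lysosomal genes, 5 were higher (3 without E12 replicate 2) and 2 lower. S100a6 rose 18.8-fold (194, 136 and 67.2 to 2343, 1970 and 2610), Anxa1 5.88-fold and Anxa2 3.36-fold (1357, 1260 and 1379 to 4382, 4313 and 4743), while the protease Ctsl, cathepsin L, fell 5.04-fold (2766, 2691 and 2634 to 486, 516 and 611).

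Markers of other cells that a nerve can hold moved in part. Of 21 macrophage markers tested, 5 were lower (3 without E12 replicate 1) and 1 higher (none without it; median log2 change -0.45), and their summed index was 5062 to 9075 at E12 and 3933 to 4835 at E18. Ctss, cathepsin S, had 1719, 850 and 222 at E12 and values under the floor at E18, at least 10-fold less, and Laptm5 and C1qc fell 2.56-fold and at least 3.16-fold. In all 3 genes E12 replicate 1 was the highest array and E12 replicate 4 the lowest of its stage. The 1 marker called higher was Itgam (adjusted p = 0.0305). Its limma call was kept after quantile normalization and equal medians. It was lost without each array but E18 replicate 3 (adjusted p of up to 0.16). Lyz2, Fcer1g and Pf4 were at the floor on all 6 arrays, and Aif1, Cx3cr1 and Fcgr1 were not called. The embryonic globins Hbb-y (4251, 6192 and 1344 to 115, 147 and 107, 27-fold) and Hba-x (at least 7.88-fold) fell, and the adult globin Hbb-b2 was called higher (3.75-fold), but not without E12 replicates 1 or 4 or E18 replicates 1 or 2 (adjusted p of up to 0.125). The erythroid genes Gata1, Klf1 and Tfrc were not called, and the 14 markers summed to 5113 to 13010 at E12 and 6325 to 7762 at E18. Neuronal markers gave 2 falls among 18 (11.1%, against 8.21% of all genes), Gap43 and Uchl1 (1.73-fold), with sums of 4321 to 4764 and 3881 to 4951. Snap25, Syt1, Elavl4, Isl1 and Scg2 were at the floor on all 6 arrays. Endothelial (1 of 13 higher), mural (1 of 10 lower, Notch3), mast cell and lymphoid (2 of 12 higher), melanocyte (1 of 9 higher), skeletal muscle (0 of 19, 1 at an unadjusted p under 0.05) and epithelial (0 of 12, 1 unadjusted) markers had 0 to 2 calls each by limma, and none of those but Notch3 held without each array. The part of these cells in other results was not tested.

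E16 and E14 were compared in the same fit on 7 arrays that are not among the 6, with 50 genes called higher (0.674%) and 90 lower (1.21%). Of the 265 genes higher at E18 than at E12, 225 (84.9%) were also above at E16 against E14, 39 of them called and 0 called lower. Of the 609 lower genes, 532 (87.4%) were below, 72 of them called and 0 called higher. Over all 7414 genes, 42.8% were above and 56.2% below. Exceptions included Ntrk3 and Fn1, chosen here after their values were seen. Ntrk3, the neurotrophin-3 receptor, was at the floor at E12 and had 170, 200 and 425 at E18, yet its mean was 435 ± 109 at E14 (SD, n = 3) and 217 ± 129 at E16 (SD, n = 4). Fn1 had 1100 ± 326 at E14 (SD, n = 3) and 1807 ± 951 at E16 (SD, n = 4), against 3244, 3366 and 2339 at E12 and 1417, 814 and 518 at E18.

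**Figure D5:**
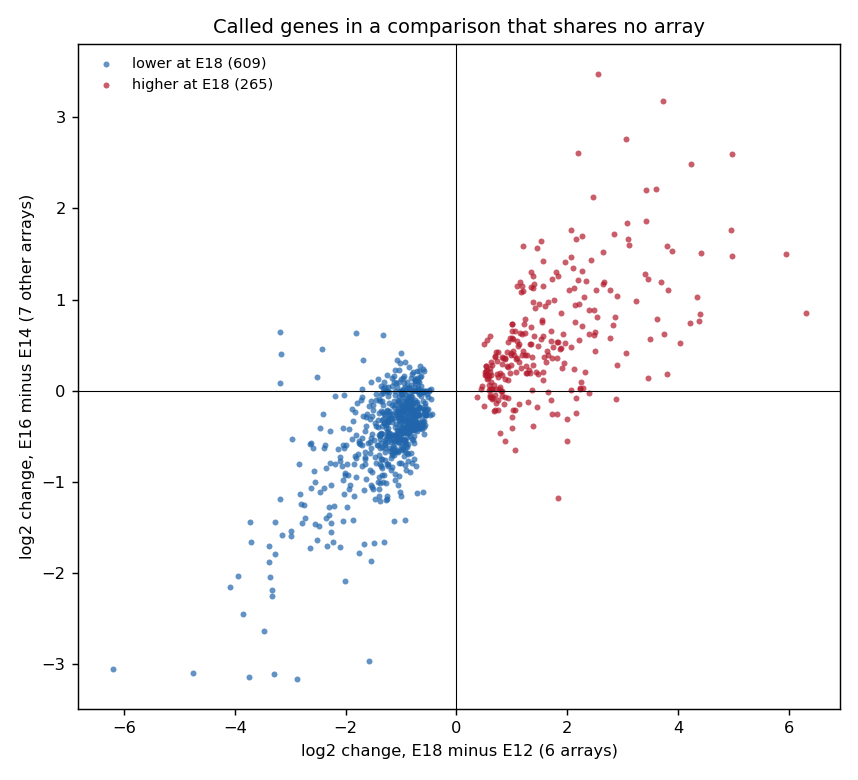
Log2 change from E14 to E16 (vertical axis, 7 arrays) against that from E12 to E18 (horizontal axis, 6 other arrays) for the 265 genes called higher (red) and the 609 called lower (blue) at E18. Points lie mostly at lower left and upper right, with 532 of 609 below and 225 of 265 above 0 on the vertical axis.

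The means of the other stages are given as a description. Of the 265 higher genes, 122 had passed the midpoint between their E12 and E18 means at E14, 116 passed it first at E16 and 27 only at E18. Of the 609 lower genes, the numbers were 274, 271 and 64, and of all 7414 genes 3746, 1912 and 1756, so the numbers past the midpoint at E14 were near the share of all genes. Col1a1 and Ndrg1 were early, with means of 3751 and 1703 at E14, while Gatm (299.7 at E14), S100a6 (239) and Col15a1 (186) had not passed the midpoint and did so at E16. Among falls, Scrg1 had dropped to 220 and Nkain1 to 218 at E14, while Fabp7 (4572) and Gfra3 (2514) were still near their E12 level and passed the midpoint at E16. Vcan (3447) lay below every E12 array at E14 and also passed it at E16, and the means of Tcf4 and Actn1 passed the midpoint only at E18. Their E16 arrays were split, at 726, 656.7, 357.5 and 328.3 for Tcf4 and at 2183, 1460, 405.8 and 450.3 for Actn1. Replicates 1 and 2, the high ones, were both of lot 1, with GAPDH 3'/5' ratios of 5.8 and 9.12. Replicates 3 and 4 were of lots 3 and 4, with ratios of 4.26 and 3.84. Whether lot or RNA quality has a part in this split was not tested. Compared with the trunk crest at E9.5, 246 of the 265 higher genes lay on the E12 side of the midpoint, against 4445 of all 7414 genes. Of the 609 lower genes, 235 were on the E18 side at E9.5, close to the share of all genes (2969 of 7414). Scrg1 (0 on all E9.5 arrays), Cadps (79.3 at E9.5), Dpysl4 (97.8) and Gfra3 belong to these, whereas Crabp2 (3085) and Hmga2 were high from E9.5. At P0, 228 of the 265 and 559 of the 609 were still on the E18 side, against 4710 of all 7414 genes.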

How the data were processed

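The samples are 19 arrays of GFP-sorted mouse cells, of which 3 at E12 and 3 at E18 are compared. Per the labels, RNA was amplified by in vitro transcription in repeated rounds, hybridised to Affymetrix arrays and scanned with MAS 5.0. Repeated amplification shortens messages towards their 3′ ends, so a probe set far from that end can read low. The deposited values are intensities on a linear scale, the model-based expression index of dChip (version not given in the sources used here) after smoothing-spline normalization between arrays by the authors. Per the labels, probe sensitivities came from 18 arrays, while the table holds 19.

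Of 12488 probe sets, 66 are controls, 10833 have 1 gene symbol in the platform annotation, 396 several and 1193 none. Values under a floor of 68.5, the 25th percentile of the table, were set to it, and log2 was taken. The 10414 probe sets above the floor on at least 3 arrays were fitted with limma 3.58.1 in R 4.3.3 (lmFit and eBayes, 1 mean per stage over all 19 arrays, 13 residual degrees of freedom). A call means a 2-sided Benjamini-Hochberg adjusted p under 0.05 over all 10414, and all adjusted p-values printed are from limma. Genes are counted by the probe set with the highest mean. The fit was tested on simulated data.

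The 42 gene lists hold 1297 entries, 1059 of them on the array, and no set test was run. Members and lists were chosen with earlier results of these data known. Genes named are the 20 largest rises and the 20 largest falls among called genes whose stages did not overlap, and members of the lists, and others are said to be chosen after their values were seen. Promoter windows are from RefSeq (GRCm38.p6), and 5929 tested genes matched one. Their motifs were searched as letters on both strands. Alternatives were other floors, no filter, other scalings, other sets of arrays in the fit, lot and replicate number as blocks, the GAPDH 3′/5′ ratio as a covariate, array weights, a robust trend, an added constant, other thresholds and leaving out each array. The number of arrays limits the precision. A few glial genes are not analysed here.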

Additional observations from a re-analysis of the deposited data

Results flagged for a closer look

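Of the 20 genes with the largest rises and the 20 with the largest falls, 2 had a single array far from the rest among the 4 arrays of E16, the stage with enough arrays for this comparison. The gap to the nearest array was set against the range of the stage by Dixon's test, whose limit chance passes in about 1 in 20 groups. With 40 groups tested, 2 flagged is no more than that share. Itgb4, the integrin chain that rose from E12 to E18, had an index of 1588 on E16 replicate 4 and of 458.6, 472.1 and 628.5 on its partners (a gap of 0.85 of the range). Sh3rf1, which fell from E12 to E18, had 549.7 on E16 replicate 3 and 263.7, 273.6 and 286.1 on the others (0.922 of the range). Neither array enters the means of E12 or E18, and the calls of both genes held under every alternative tried.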

How the results depend on the processing

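Against 352 probe sets higher and 791 lower at E18, other processing gave these numbers. The 6 arrays fitted alone gave 587 and 1189, a fit without the E16 and P0 arrays 597 and 1369, and limma's array weights 1534 and 2905. A threshold of 0.01 gave 179 and 391 by its construction, and an added limit of 2-fold 244 and 440. Over the fits without 1 array the numbers ran from 217 to 282 higher and from 467 to 664 lower. Quantile normalization gave 500 and 639, equal medians 496 and 657, the GAPDH covariate 481 and 925 and the lot block 404 and 689. The replicate block gave 398 and 683. Deviations from the stage means correlated at -0.21 for replicate number 1 and at -0.14 for number 2. Between E12 and E18 arrays of unlike numbers they ran from -0.267 to 0.241. With 3 arrays per stage these values cannot tell whether the numbers pair the arrays. Of the 40 genes with the largest changes, 38 were called under every alternative, the exceptions being Sox11 and Dlx1. These 40 and the called list members together made up 198 genes, of which 121 were called under every alternative. Epha7 (-0.61 on the log2 scale, called lower at an adjusted p of 0.046) was at 0 with a floor at the 40th percentile (adjusted p = 1). Tfap2b, at 0 with all arrays at the floor, was -0.81 with log2(value + 32) (adjusted p = 0.0151), which uses values under the floor. The cause of the other shifts was not tested. Where all arrays of a stage lie at the floor, a fold change is a lower bound, and differences there are not detectable.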
